A study of Mus musculus with 8 samples.

Results

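ATP-binding cassette (ABC) transporters are membrane pumps that use ATP to move lipids, drugs, bile acids, heme, peptides and metals across membranes, and their genes fall into subfamilies A to G. Proteins of subfamilies E and F keep the ATP-binding cassette but have no membrane-spanning part and act on ribosomes and translation. The yolk sac of the mouse embryo absorbs and secretes lipids, vitamins and iron through its visceral endoderm, and its mesoderm carries the first endothelial and blood cells. Subfamily A and G members such as Abca1 and Abcg1 are best known for lipid export, and P-glycoprotein (Abcb1a and Abcb1b in mice) and Abcg2 for drug efflux and barrier function at vessels and epithelia.

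The members were the genes of the array annotation used whose symbol starts with Abc, a subfamily letter from a to g and a number, which gave 45 genes with 92 probe sets, of 18194 genes and 45101 probe sets on the array. Each gene was read from the probe set that was brightest on average over all 8 arrays, 26 members having several probe sets, and all probe sets are given for the near-identical pair Abcb1a and Abcb1b. Genes of the family that no probe set names alone in the annotation used were not analysed here. Tap1, Tap2 and Cftr belong to the same protein family but have other symbols, and were kept as a separate list.

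RNA of whole yolk sacs at E9.5 was measured on 8 Affymetrix arrays, 2 for each of 4 groups. EC-N1ICD embryos (Tie2 Tg/0; ROSA +/N1ICD, strain C57BL6) carry the intracellular domain of Notch1, switched on from the Rosa26 locus by Cre, and were compared with wild type of the same strain (Tie2 0/0; ROSA +/+). EC-Rbpj-KO embryos (Tie2-Cre; Rbpj flox/flox, mixed strain) lose Rbpj, through which Notch receptors act on DNA, and were compared with wild type samples of their own set, for which no genotype is given and whose parents carried Tie2-Cre or a floxed Rbpj allele. Tie2-Cre acts in endothelium and in blood lineages, while the RNA came from the whole yolk sac, so less RNA per cell and fewer cells of a type cannot be told apart for any gene below. Nothing in the sample descriptions states in words that each array held a separate embryo, and p-values then measure the spread between these samples.

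Rbpj itself measured 470 and 497 in the knockouts and 984 and 919 in their wild type samples (limma adjusted p = 0.00866). Xist was high on both EC-N1ICD arrays (3600 and 3730) and on EC-Rbpj-KO replicate 1 (2005) and 77 to 96 on the others, so embryo sex and genotype cannot be told apart in the EC-N1ICD comparison, and EC-Rbpj-KO calls that were gained or lost without replicate 1 are named below. Median signals of the arrays ran from 38 to 51. The 3′ to 5′ signal ratio of the Gapdh control was 4.64 on EC-Rbpj-KO replicate 1 and 3.17 to 3.51 on the other arrays of its set. It was 2.43 to 3.12 in the EC-N1ICD set. The ratio of the Actb control was 2.29 on EC-Rbpj-KO replicate 1 and 1.72 to 2.34 on all other arrays. The part of RNA quality in the changes was not tested. Markers of visceral endoderm were bright in every group, with 10 of 10 listed genes tested and summed signals of 159749 to 184070. The endothelial list had 8 of 10 genes tested and summed signals of 2060 to 4047, and the probe set of Pecam1, a defining marker, was below the median on all 8 arrays.

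Of the 45 members, 32 had a mean signal above 68, the limit for testing (the 40th percentile of all genes), and 13 did not. The 13 were Abca4, Abca6, Abca8a, Abca8b, Abca12, Abca13, Abca14, Abca16, Abcc3, Abcc8, Abcc12, Abcd2 and Abcg3, with signals of 10 to 91, and 10 of them lay under the median of every array. Subfamily A held 8 of these 13 genes, subfamily C held 3, and D and G held 1 each.

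In EC-Rbpj-KO yolk sacs, Abcb1b, Abca1 and Abcg2 fell, to 0.0912, 0.218 and 0.732 of the wild type signal. These are a drug pump, a cholesterol exporter and a pump of drugs and porphyrins. They were 3 of 32 tested members past the threshold of a Benjamini-Hochberg adjusted p of 0.05 (limma, all 10913 tested genes in the adjustment), which is 9.38% against 4.96% of all genes in either direction and 2.96% in the downward direction. No member rose. In EC-N1ICD yolk sacs, 0 of 32 members passed the same limma test, where 0.596% of all genes did. At an unadjusted p under 0.05, limma gave 5 members in EC-N1ICD (15.6%, against 12% of all genes) and 6 for EC-Rbpj-KO (18.8%, against 19.9%), and the methods' t-test gave 3 and 4 members, with 0 in either model after adjustment.

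Most members changed by less than 1.5-fold. The median log2 fold change of the 32 tested members was 0.041 for EC-N1ICD and 0.015 for EC-Rbpj-KO, beside 0.013 and -0.024 over all genes tested. In each model 27 of 32 members had a mean signal within 1.5-fold of wild type. Both mutant arrays lay beyond both wild type arrays for 14 members in EC-N1ICD and for 13 with Rbpj deleted (43.8% and 40.6%, against 42.6% and 50.8% of all genes). The shares of members with mutant and wild type arrays apart lie near or under the background. They separate the family from other genes in neither model.

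**Figure D1:**
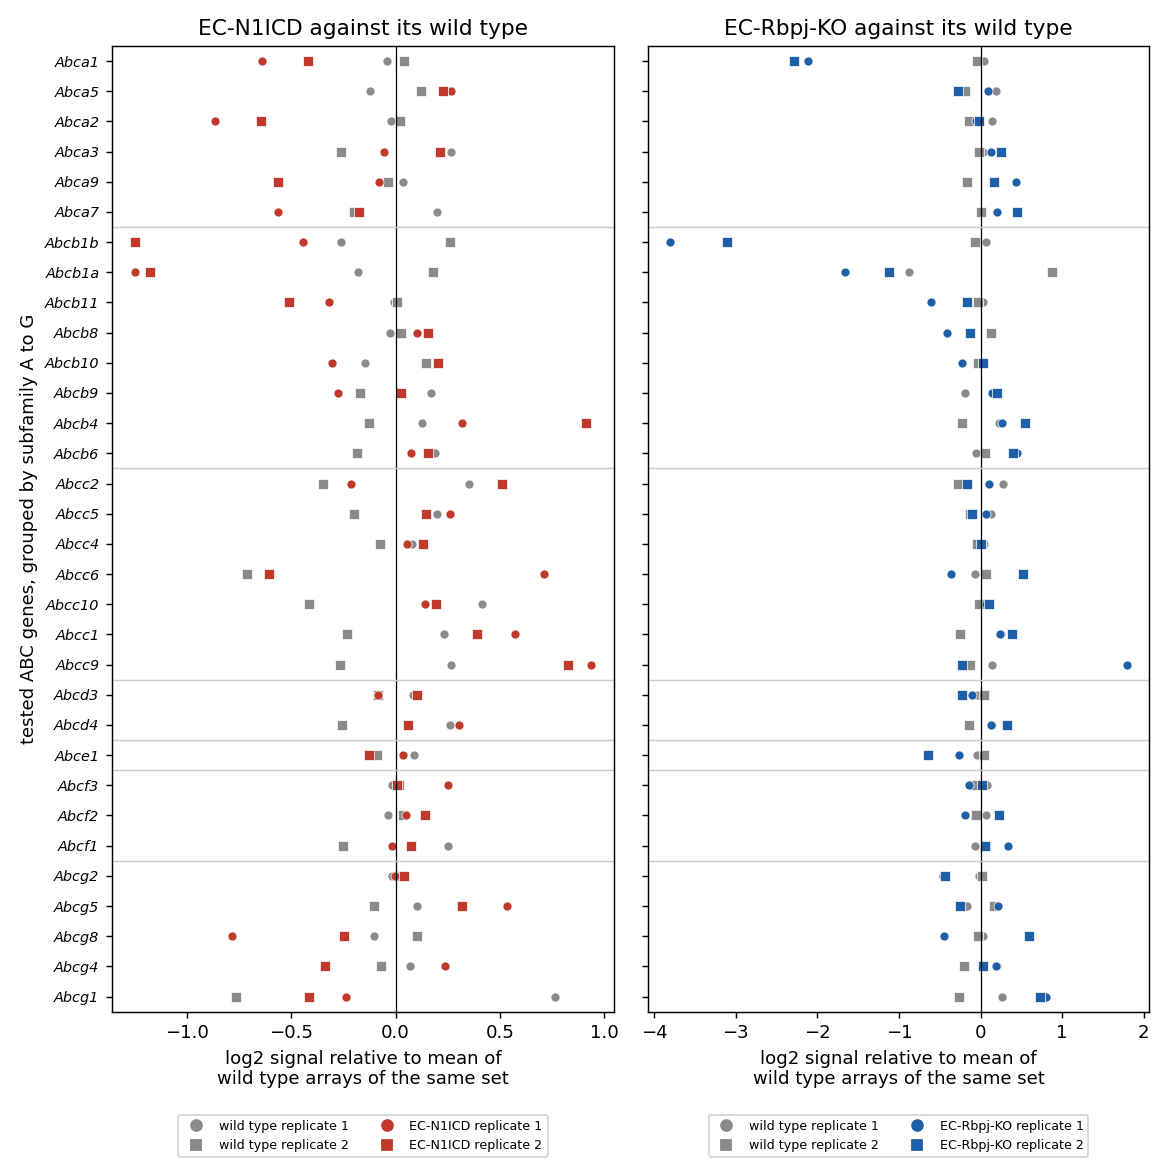
Log2 signal of each of the 32 tested ABC genes on each array minus the mean of both wild type arrays of its set (grey wild type, red EC-N1ICD, blue EC-Rbpj-KO, circles replicate 1, squares replicate 2; the 2 panels have different horizontal scales). Abca1, Abcb1b and Abcb1a stand to the left in both panels, and Abcc9 is high on 1 EC-Rbpj-KO array only.

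Abca1, Abcb1b and Abcb1a are the members with the largest differences in EC-Rbpj-KO, so the 250 bases before their start are shown. The sequences come from RefSeq (GRCm38.p6) and are written 5′ to 3′ on the strand of the gene. Capitals mark matches on either strand to CCAAT (the CCAAT box, bound by NF-Y), to GGGCGG (the GC box, bound by Sp factors) or to TATAAA (the TATA box). Liver X receptors (LXR), the oxysterol sensors, are known to drive Abca1.
Abca1, chr4:53159896-53160145, minus strand: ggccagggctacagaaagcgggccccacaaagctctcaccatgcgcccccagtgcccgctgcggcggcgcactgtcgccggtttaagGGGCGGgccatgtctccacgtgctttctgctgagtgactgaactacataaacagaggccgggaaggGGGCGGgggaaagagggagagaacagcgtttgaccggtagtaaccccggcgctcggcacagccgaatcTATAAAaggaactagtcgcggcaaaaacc
Abcb1b, chr5:8797897-8798146, plus strand: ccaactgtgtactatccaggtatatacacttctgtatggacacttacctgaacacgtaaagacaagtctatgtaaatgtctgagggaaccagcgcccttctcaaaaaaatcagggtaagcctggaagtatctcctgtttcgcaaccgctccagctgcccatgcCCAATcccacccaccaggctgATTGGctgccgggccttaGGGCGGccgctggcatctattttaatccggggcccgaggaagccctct
Abcb1a, chr5:8566841-8567090, plus strand: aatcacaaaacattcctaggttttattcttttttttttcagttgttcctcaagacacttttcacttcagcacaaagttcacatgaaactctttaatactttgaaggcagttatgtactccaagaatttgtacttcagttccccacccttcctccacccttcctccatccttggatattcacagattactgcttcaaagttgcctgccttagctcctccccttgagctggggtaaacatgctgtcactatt

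The Abca1 window holds 2 GC boxes, 163 and 97 bases before the start, and TATAAA, 29 bases before it. The Abcb1b window holds CCAAT in both orientations, 87 and 66 bases before the start, and a GC box 48 bases before it. Abcb1a, the neighbour of Abcb1b on chromosome 5, has none of these letters in its window. Windows from 250 bases before to 50 bases after a start were given for 35 of the 45 members (42 windows), and both strands were searched. GGGCGG is in 50% of member windows and 35.7% of all 32851 windows, CCAAT in 35.7% against 37.4%, and TATAAA in 16.7% against 13.6%. GTGGGAA, core letters of the RBPJ site, is in 1 member window (2.38%, Abca8a) against 6.38% of all windows, and in none of the windows of Abca1, Abcb1a, Abcb1b and Abcg2. A match is a string of letters and no evidence of binding. Sequence outside these windows was not searched, so a missing match says nothing on sites farther from a start.

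Abcb1b encodes one of the P-glycoproteins, which pump many drugs and steroids out of cells. Its signals were 114 and 183 in EC-Rbpj-KO and 1662 and 1509 in their wild type. In the other set they were 340 and 195 in EC-N1ICD and 386 and 556 in wild type. Mutant and wild type arrays did not overlap in either set, and both EC-Rbpj-KO arrays were the lowest of all 8. The log2 fold change was -3.45 in EC-Rbpj-KO (standard error 0.30 with n = 2 in each group, limma adjusted p = 0.000236), 1 of the largest falls among all genes (rank 2 of 10913). It was -0.85 in EC-N1ICD (standard error 0.30, adjusted p = 0.255). The difference between the models, 2.61 on the log2 scale, passed the test (adjusted p = 0.0366), and missed it without any 1 of 5 arrays (adjusted p = 0.0814 to 0.145), all 4 wild type arrays and EC-N1ICD replicate 1. A second probe set of Abcb1b gave signals of 12 to 20 on all arrays, below the median of each, and carries no information on the change.

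Abcb1a, the other P-glycoprotein gene and the main one of brain capillaries in adult mice, was read by 2 probe sets. The brighter gave signals of 103 and 108 in EC-N1ICD beside 216 and 278 in wild type. Its signals in EC-Rbpj-KO were 97 and 141 against 167 and 566. The mutant arrays were the lower ones in both sets, but those of the EC-Rbpj-KO wild type stood far apart from each other. Neither change passed the test in the fit of all genes (log2 fold change -1.22, adjusted p = 0.27, and -1.39, adjusted p = 0.0961, standard error 0.44 in both). Without replicate 1 of its wild type, the lower of those arrays, the change in EC-Rbpj-KO was -2.27 and passed (adjusted p = 0.00595), as did the mean of all probe sets of the gene (-1.64, adjusted p = 0.0336). The dimmer gave signals of 28 and 29 in EC-N1ICD beside 103 and 118, and of 64 and 74 in EC-Rbpj-KO beside 191 and 338. In a fit over all 34958 probe sets naming 1 gene it fell in both models, by 1.95 in EC-N1ICD (standard error 0.32, adjusted p = 0.02) and by 1.88 in EC-Rbpj-KO (standard error 0.32, adjusted p = 0.0092), where 0.0772% and 1.17% of these probe sets fell. The call in EC-Rbpj-KO was lost without EC-Rbpj-KO replicate 1 (adjusted p = 0.0528) and without replicate 2 of its wild type (adjusted p = 0.18), and that in EC-N1ICD without any 1 array of its set. Both EC-N1ICD signals lay below the median of their arrays, so background limits the size of that fold. For this probe set the difference between the models was -0.07 (standard error 0.45, adjusted p = 0.983), where that of Abcb1b was past the threshold. Abcb4, the third gene of this neighbourhood on chromosome 5 and the phospholipid pump of bile canaliculi, gave signals of 168 and 253 in EC-N1ICD beside 147 and 123 (log2 fold change 0.62, unadjusted p = 0.0344, adjusted p = 0.362), and of 204 and 247 in EC-Rbpj-KO beside 199 and 145 (0.40, adjusted p = 0.414).

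**Figure D2:**
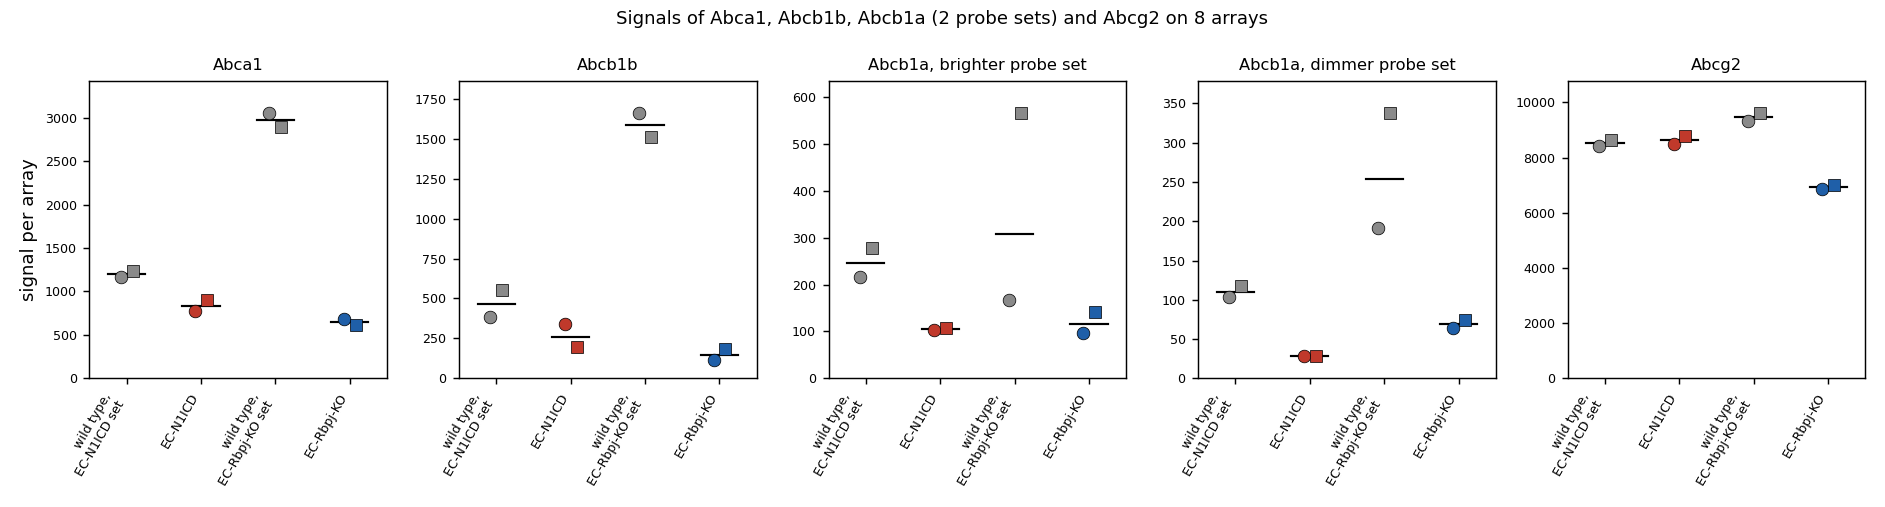
Signal per array of Abca1, Abcb1b, both probe sets of Abcb1a and Abcg2 in the 4 groups (linear axis from 0; circles replicate 1, squares replicate 2, line the geometric mean). The EC-Rbpj-KO arrays lie below their wild type arrays in every panel, and the EC-N1ICD arrays do so in all panels but that of Abcg2.

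Abca1 exports cholesterol and phospholipid to apolipoprotein A-I. Its signals were 685 and 610 in EC-Rbpj-KO beside 3054 and 2891 in wild type, and 770 and 899 in EC-N1ICD beside 1168 and 1236. Both EC-Rbpj-KO arrays were again the lowest of all 8, and the mutant and wild type arrays were apart in both sets. The log2 fold change was -2.20 in EC-Rbpj-KO (standard error 0.15, adjusted p = 5.9e-05, rank 17 of 10913 by size of fall). In EC-N1ICD it was -0.53 (standard error 0.15, unadjusted p = 0.00475, adjusted p = 0.17), a fold of 0.693 with a 95% interval of 0.55 to 0.872. The change differed between the models, by 1.67 on the log2 scale (standard error 0.21, adjusted p = 0.0185), which missed the threshold without either wild type array of the EC-N1ICD set or replicate 1 of the other wild type (adjusted p = 0.0513 to 0.0703). Its other 2 probe sets were dim, at 19 to 87 and 13 to 24, and both read lower in the 2 knockouts than in either wild type sample.

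Calls of the partner and marker genes below depended on single arrays more often than not. With each of the 8 arrays left out in turn, 1 of 9 calls in EC-N1ICD passed in every run, that of Amacr, and 6 of 18 in EC-Rbpj-KO, those of Ch25h, Cldn5, Csf1r, Cx3cr1, Ly86 and Tfrc.

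Partners of Abca1 in lipid export were listed as well. Of 22 listed genes of the LXR pathway and lipid efflux, 18 were tested, and 1 passed in each model. That gene was Ch25h, which makes 25-hydroxycholesterol and is a gene the study itself singled out on these arrays. It rose in both, from 33 and 19 to 127 and 130 in EC-N1ICD (adjusted p = 0.0156) and from 25 and 31 to 136 and 101 in EC-Rbpj-KO (adjusted p = 0.00755). The median of the list was 0.04 in both models. Nr1h3, which encodes LXR alpha, gave signals of 211 and 190 in EC-Rbpj-KO beside 189 and 143, and Srebf1, a target of LXR, 1284 and 1107 against 1739 and 1573 (adjusted p = 0.515 and 0.201). Apoa1, the acceptor of the lipid, gave signals of 23624 to 29411 on the 4 arrays of that set.

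Abcg2, a pump of drugs, urate and porphyrins known for its expression in stem cells and erythroid precursors, gave signals of 6869 and 6992 in EC-Rbpj-KO beside 9318 and 9618 in wild type. In EC-N1ICD it had 8495 and 8778 against 8425 and 8621. The EC-Rbpj-KO arrays were the lowest of the 8 here too, as for Abca1 and Abcb1b. The log2 fold change in EC-Rbpj-KO was -0.45 (standard error 0.08, adjusted p = 0.0118). In EC-N1ICD the fold was 1.01 with a 95% interval of 0.892 to 1.15. The difference between the models did not pass (0.47, adjusted p = 0.168). The call was lost when arrays were centred on their medians (log2 fold change -0.38, adjusted p = 0.0829) and without replicate 1 or replicate 2 of the wild type (adjusted p = 0.0636 and 0.112).

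The remaining members of subfamily A, which carry lipids, had no call. Abca3, which loads surfactant lipid into lamellar bodies, gave signals of 4500 and 4881 in EC-Rbpj-KO beside 4184 and 4044, and 2502 and 3017 in EC-N1ICD beside 3123 and 2166 (log2 fold change 0.19 and 0.08). Its 2 bright probe sets differed in sign in EC-Rbpj-KO. Abca2, a lipid transporter of lysosomes and myelinating cells, had 54 and 63 in EC-N1ICD beside 97 and 100 (-0.76, unadjusted p = 0.0163, adjusted p = 0.265), and 69 and 71 in EC-Rbpj-KO beside 79 and 65. Both EC-N1ICD arrays were under both wild type arrays for Abca2, and the groups overlapped in EC-Rbpj-KO. Abca5, Abca7 and Abca9 ranged from -0.37 to 0.33 over both models.

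Among the other members of subfamily B, the mitochondrial and vesicular transporters took small values. Abcb6, a porphyrin transporter, gave signals of 1299 and 1262 in EC-Rbpj-KO beside 917 and 997, with both mutant arrays the higher (log2 fold change 0.42, unadjusted p = 0.0268, adjusted p = 0.181). In EC-N1ICD it had 824 and 871 against 890 and 687. Abcb10, which serves heme synthesis in erythroid mitochondria, had a fold of 0.935 in EC-Rbpj-KO (95% interval 0.675 to 1.3) and 0.964 in EC-N1ICD (0.695 to 1.34). A second bright probe set of Abcb10 had both mutant arrays lower in each set, without a call. It gave 182 and 155 in EC-Rbpj-KO beside 269 and 220, and 144 and 218 in EC-N1ICD beside 225 and 258 (log2 fold change -0.53 and -0.44). Abcb11, the bile salt export pump, had 222 and 301 in EC-Rbpj-KO beside 346 and 330, and 134 and 117 in EC-N1ICD beside 166 and 168. Its mutant arrays were lower in both sets, with log2 fold changes of -0.39 and -0.42 (adjusted p = 0.326 and 0.473). Abcb8 and Abcb9 ranged from -0.27 to 0.17.

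Of 19 heme and iron-sulfur partners of Abcb6, Abcb10 and Abcg2, 17 were tested. Flvcr1, a heme and choline exporter, fell in EC-Rbpj-KO, with 343 and 309 against 666 and 647 (log2 fold change -1.01, adjusted p = 0.00704). None of the others passed in either model, and the median of the list was -0.31 for EC-N1ICD and -0.18 for EC-Rbpj-KO. The summed signals of the primitive erythroid markers were lower on the mutant arrays of both sets. They were 48517 to 82672 in EC-N1ICD beside 95522 to 101360 in wild type and 54470 to 66764 in EC-Rbpj-KO beside 69032 to 71067. Of 9 tested erythroid markers 1, Tfrc, fell in each model, and the part of erythroid cells in the values of Abcg2, Abcb10 and Flvcr1 was not tested.

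The 7 tested members of subfamily C, pumps of conjugated anions, nucleotides and leukotrienes and regulators of potassium channels, had no call in either model. Read from 1 probe set a gene, all 7 had log2 fold changes above 0 in EC-N1ICD (0.05 to 0.88), where 52.3% of all genes did. In EC-Rbpj-KO 5 of 7 did, against 46.6% of all genes. This direction depends on the probe set, since the 7 bright probe sets of Abcc5 differed in sign in both models. Abcc6 was near background in the EC-N1ICD set, with 35 and 14 in EC-N1ICD beside 35 and 13. Abcc4, which exports cyclic nucleotides and prostaglandins, gave signals of 2404 and 2540 in EC-N1ICD beside 2442 and 2195, and 4462 and 4424 in EC-Rbpj-KO beside 4547 and 4259. Its fold was 1.07 (95% interval 0.894 to 1.27) and 1.01 (0.845 to 1.21), among the narrowest intervals in the family. Abcc1, which exports leukotriene C4 and glutathione conjugates, had 194 and 171 in EC-N1ICD beside 153 and 111 (log2 fold change 0.48, adjusted p = 0.516). Abcc2, the canalicular anion pump, had a fold of 1.11 in EC-N1ICD (95% interval 0.718 to 1.71) and 0.98 for EC-Rbpj-KO (0.636 to 1.51).

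Abcc9, the sulfonylurea receptor that forms potassium channels with Kcnj8 in smooth muscle and pericytes, varied widely between arrays. Its signals were 244 and 226 in EC-N1ICD beside 153 and 106, and 258 and 64 in EC-Rbpj-KO beside 82 and 68. EC-Rbpj-KO replicate 1 was the highest of the 8 arrays and replicate 2 the lowest. The highest signals were those of EC-Rbpj-KO replicate 1 and both EC-N1ICD arrays, the arrays with high Xist. The log2 fold change was 0.88 for EC-N1ICD and 0.78 for EC-Rbpj-KO (standard error 0.49, adjusted p = 0.532 and 0.401). Without EC-Rbpj-KO replicate 2 the change in EC-Rbpj-KO was 1.79, resting on 1 mutant array with high Xist against wild type arrays with low Xist. A second probe set had 132 and 37 in EC-Rbpj-KO beside 54 and 59, and 122 and 114 in EC-N1ICD beside 91 and 73, so the split lay between arrays and not between probes. Kcnj8, not tested because its mean signal was too low, had 172 and 50 against 23 and 31 in EC-Rbpj-KO and 59 and 61 against 25 and 31 in EC-N1ICD. Kcnj11, the usual partner of Abcc8, had 1171 and 104 in EC-N1ICD, 1220 and 124 in wild type, 771 and 835 in EC-Rbpj-KO and 108 and 90 in wild type, so in the EC-N1ICD set it differed more between replicates than between groups (adjusted p = 0.123 in EC-Rbpj-KO). Among 6 smooth muscle and mural markers, Tagln and Myl9 rose in EC-N1ICD and none passed in EC-Rbpj-KO. Signals summed over all 6 were 18436 to 19611 against 9489 to 10837 in EC-N1ICD and 3714 to 4749 against 3658 to 3717 in EC-Rbpj-KO. The parts of mural cells and of embryo sex in the Abcc9 signal were not tested.

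**Figure D3:**
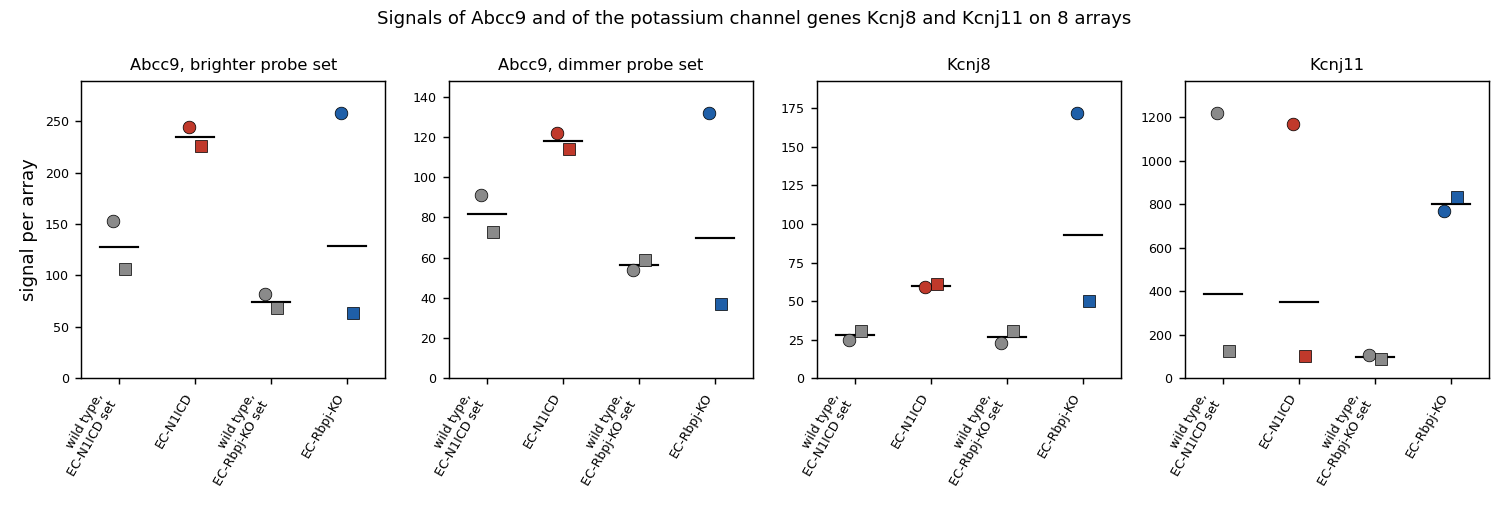
Signal per array of 2 probe sets of Abcc9, of Kcnj8 and of Kcnj11 in the 4 groups (linear axis from 0; circles replicate 1, squares replicate 2, line the geometric mean). EC-Rbpj-KO replicate 1 is far above replicate 2 in both Abcc9 panels and for Kcnj8, and Kcnj11 splits within both groups of the EC-N1ICD set.

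Of 13 glutathione genes that supply substrates to the Abcc pumps, 12 were tested. In EC-Rbpj-KO, Gsr, glutathione reductase, fell from 823 and 735 to 403 and 445 (adjusted p = 0.0279), and Gsta4, a glutathione transferase, rose to 1901 and 1712 from 340 and 1032 (adjusted p = 0.0339), its wild type arrays lying far apart. Without EC-Rbpj-KO replicate 1 neither passed (adjusted p = 0.0777 and 0.0905), and without replicate 1 of the wild type the change of Gsta4 was 0.81 on the log2 scale (adjusted p = 0.112). None passed in EC-N1ICD. Of 17 solute carriers of drugs and organic anions, 10 were tested and none passed. The smallest p was that of Slco2a1, the prostaglandin transporter, with 1693 and 1608 in EC-Rbpj-KO beside 1178 and 1023 (adjusted p = 0.0529).

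Subfamily D carries fatty acids and cobalamin. Abcd3, which moves branched and long-chain acyl-CoA into peroxisomes, gave signals of 7283 and 6691 in EC-Rbpj-KO beside 7605 and 8056, both mutant arrays being lower (log2 fold change -0.17, adjusted p = 0.418). In EC-N1ICD it had 6046 and 6876 against 6787 and 6053. Its fold was 1.01 in EC-N1ICD (95% interval 0.856 to 1.18) and 0.892 for EC-Rbpj-KO (0.759 to 1.05). Abcd4, which works in lysosomal cobalamin export, had 577 and 487 against 560 and 391 in EC-N1ICD and 1066 and 1222 against 1077 and 882 in EC-Rbpj-KO (0.18 and 0.23). Of 15 tested peroxisomal partners, Amacr, a racemase of branched fatty acids, rose in EC-N1ICD from 136 and 114 to 673 and 538 (adjusted p = 0.00273), and Ehhadh, an enzyme of peroxisomal beta-oxidation, fell in EC-Rbpj-KO from 4615 and 4874 to 3722 and 2606 (adjusted p = 0.0475, and 0.174 without replicate 2, where the log2 fold change was -0.35 in place of -0.61). Of 13 cobalamin partners, all tested, the endocytic receptors Cubn (14936 and 17440 against 20980 and 19984, adjusted p = 0.0324) and Lrp2 (1561 and 931 against 2910 and 2488, adjusted p = 0.0156) fell in EC-Rbpj-KO, the first without a call when replicate 1 was left out (adjusted p = 0.115). Both are also markers of visceral endoderm. The summed signal of that marker list was 159749 to 169800 in EC-Rbpj-KO beside 171105 to 184070, and 162272 to 164687 in EC-N1ICD beside 163352 to 166439, and its part in the values of Abcd3 and Abcg2 was not tested.

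Abce1, the factor that splits ribosomes after termination, gave signals of 2235 and 1723 in EC-Rbpj-KO beside 2617 and 2761, and 2307 and 2061 in EC-N1ICD beside 2390 and 2118. Both EC-Rbpj-KO arrays were lower than wild type (log2 fold change -0.45, standard error 0.15, unadjusted p = 0.0124, adjusted p = 0.122), and a second bright probe set gave a fold of 0.733 beside 0.73. Without EC-Rbpj-KO replicate 1, the array with female transcripts, the change was -0.64 and passed (adjusted p = 0.0378). Of 10 tested partners in ribosome recycling and translation, Gspt1, the release factor eRF3, fell in EC-Rbpj-KO, with 2152 and 1728 against 2804 and 3038 (adjusted p = 0.0339). Subfamily F, which acts in translation control, changed little when read from the brightest probe set of each gene. Bright probe sets of Abcf1 differed in sign in both models, and those of Abcf2 and Abcf3 did so in EC-N1ICD. Abcf1 had 3126 and 2575 in EC-Rbpj-KO beside 2371 and 2602 (log2 fold change 0.19, adjusted p = 0.576), and 2983 and 3178 in EC-N1ICD beside 3598 and 2532. Abcf1, Abcf2 and Abcf3 lay between -0.06 and 0.19 in both models, and all 3 had folds within 1.5 of wild type.

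In subfamily G, beside Abcg2, the sterol exporters gave no call. Abcg1, which exports cholesterol to mature lipoproteins, had 61 and 58 in EC-Rbpj-KO beside 42 and 29, and 85 and 75 in EC-N1ICD beside 170 and 59 (log2 fold change 0.77 and -0.33, standard error 0.44, adjusted p = 0.356 and 0.851). Its EC-Rbpj-KO arrays were both higher than wild type, the opposite side from Abca1, but all 4 signals were low. Abcg5 and Abcg8, which form 1 sterol pump and are neighbours on chromosome 17, had log2 fold changes of -0.02 and 0.07 in EC-Rbpj-KO and of 0.43 and -0.51 in EC-N1ICD, with standard errors of 0.27 and 0.36. Of the ABC genes with other symbols, Tap1 was tested and did not pass (95 and 90 in EC-Rbpj-KO beside 66 and 69, adjusted p = 0.502). Of 9 tested peptide loading partners none passed, Tapbp having the smallest p (151 and 169 against 102 and 89 in EC-Rbpj-KO, adjusted p = 0.221).

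**Figure D4:**
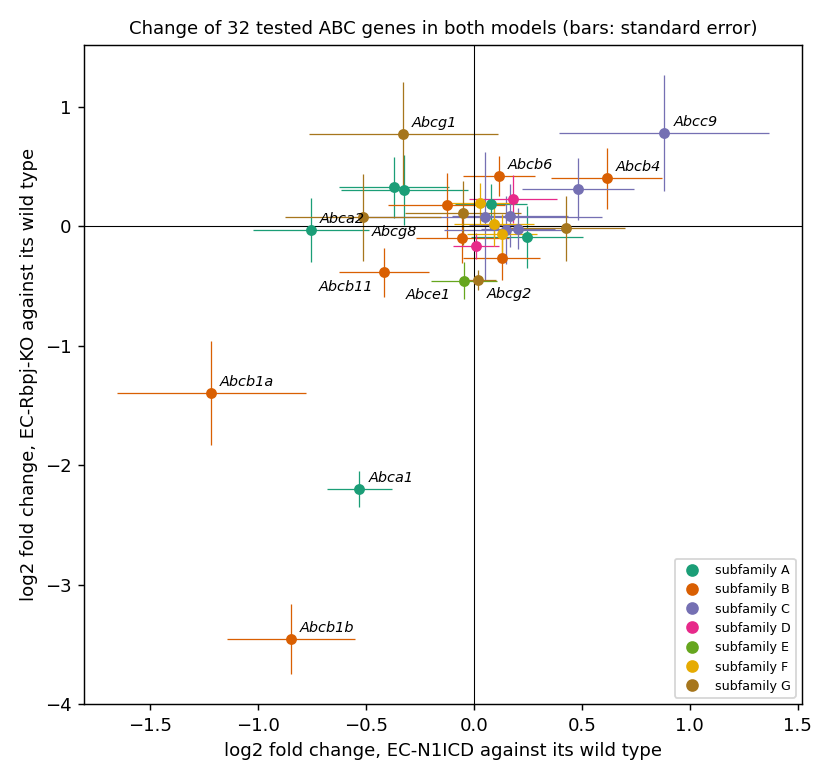
Log2 fold change of the 32 tested ABC genes in EC-N1ICD (horizontal) and EC-Rbpj-KO (vertical), each against wild type of its own set, coloured by subfamily, with standard errors as bars. Most genes cluster near 0, while Abcb1b, Abca1 and Abcb1a lie below 0 on both axes and the fall of Abcb1b and Abca1 is larger in EC-Rbpj-KO.

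The models differed past the threshold for 2 members, Abcb1b and Abca1 (6.25%, against 0.266% of all genes). In both, the wild type arrays of the sets were also far apart. The geometric mean signal of Abcb1b was 463.3 in the wild type of the EC-N1ICD set and 1584 in that of the EC-Rbpj-KO set (3.42-fold), and that of Abca1 was 1202 and 2971 (2.47-fold). The mutants of the sets were nearer to each other, with Abca1 at 770 and 899 when N1ICD was expressed and at 685 and 610 when Rbpj was deleted. Strain, processing set and the genotypes of the wild type samples cannot be told apart between the sets.

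Of the 32 tested members, 9 had wild type means at least 2-fold apart, 8 of them higher in the EC-Rbpj-KO set, where 11% of all genes were that far apart. The largest ratio was that of Abcc6, a transporter of liver and kidney linked to mineralisation, at 21.3 and 109 (5.1-fold), with the first close to background. Abcc10 was 3.37-fold, Abca5 2.5-fold, Abcd4 2.08-fold, Abcb11 2.02-fold and Abcb8 2.01-fold higher. Abcg1 was lower, at 0.348 of the signal in the EC-N1ICD set. These ratios describe the 2 sets and were not tested.

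**Figure D5:**
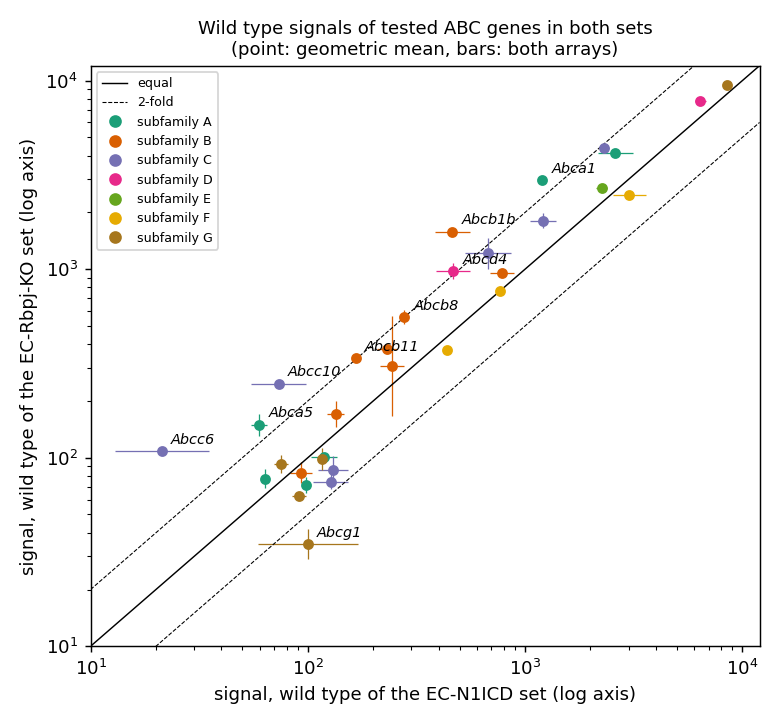
Geometric mean signal of the tested ABC genes in wild type of the EC-N1ICD set (horizontal) and wild type of the EC-Rbpj-KO set (vertical), both on log axes, with bars from the lower to the higher array. The dashed lines mark 2-fold, and 8 named genes lie above and 1, Abcg1, below them.

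Factors known to regulate multidrug transporter genes were also listed, together with the Notch pathway genes Rbpj, Hey1 and Heyl. The calls of this list were of these Notch pathway genes. Of 17, 12 were tested. Hey1, a direct Notch target, rose in EC-N1ICD, with 319 and 298 against 147 and 103 (adjusted p = 0.0364), and Rbpj fell in EC-Rbpj-KO as given above. Nfe2l2, the oxidative stress factor that drives several Abcc genes, had 2963 and 3401 in EC-Rbpj-KO beside 3391 and 3162, and Ahr, the dioxin receptor, 664 and 467 against 387 and 349, neither past the threshold.

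Markers of other cells also moved with the EC-Rbpj-KO genotype. Of 9 tested macrophage markers 5 rose and 1 fell, and the signals summed over the whole list were 3340 to 4586 against 1463 to 2011. Of 8 tested endothelial markers Cldn5 and Icam2 rose, and the list summed to 2512 to 3707 against 2060 to 2104. In EC-N1ICD 1 macrophage marker, Ly86, rose, the megakaryocyte gene Pf4 fell, the heart gene Actc1 rose and no endothelial marker passed. Signals summed over each whole list were 2331 to 2644 against 1975 to 2094 for macrophages and 858 to 1375 against 2311 to 3329 for megakaryocytes. They were 2145 to 2695 against 428 to 558 for cardiac muscle and 3443 to 3673 against 3057 to 4047 for endothelium. Tek, the gene whose promoter drives Cre here, gave signals of 187 and 181 in EC-Rbpj-KO beside 276 and 336 (adjusted p = 0.103). Without EC-Rbpj-KO replicate 1, Cd68, Adgre1, Tyrobp and Icam2 had no call (adjusted p = 0.14, 0.0605, 0.0877 and 0.141), the log2 fold change of Icam2 being 0.66 in place of 1.04. Of 5 trophoblast and decidua markers 1 was tested, without a call. The part of these cell types in the changes of the ABC genes was not tested.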

How the data were processed

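The deposited intensity values are 1 linear signal per probe set and array, made by the authors with MAS5 (version and scaling target not given in the sources used here), and run from 7 to 36554 without detection calls. Of 45101 probe sets, 34958 name 1 gene in the platform annotation, and those naming several (932) or none (9211) were left out. A probe set ending in _s_at can match more than 1 transcript, which applies to Abcc2, Abcc9, Abce1, Abcf1 and Abcg4. Samples were grouped by source name and title. The model was limma 3.58.1 in R 4.3.3 on log2 signals (4 groups, contrasts within a set, eBayes with trend, 4 residual and 7.37 prior degrees of freedom). Two-sided p-values took Benjamini-Hochberg adjustment over the 10913 genes whose mean signal passed the 40th percentile, and values of other genes come from a fit without this filter. Difference means the EC-N1ICD change minus the EC-Rbpj-KO change. An exact permutation test of 2 arrays against 2 cannot give a p under 0.333, so none is reported, and the number of arrays limits the precision. Within-group Pearson correlations of log2 signals were 0.976 to 0.987. The steps were tested on simulated data.

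The members, partner lists and marker lists were chosen with earlier results of these data known. Named were members past the threshold, those with an unadjusted p under 0.05, all probe sets of Abcb1a and Abcb1b, the brightest and the most changed tested member of each subfamily, and partners past the threshold or with the smallest p. Other genes in the text, among them Abcb10, Abcb11, Abcc1, Abcc2, Abcc6, Abcg5, Abcg8, Kcnj8, Apoa1, Nr1h3, Srebf1, Nfe2l2 and Ahr, were chosen after their values were seen. Alternatives covered the filter, a constant of 16 added to each signal, median centring, quantile normalization, the mean of all probe sets of a gene, the variance trend, the 4 arrays of a set alone, each array left out (for partner and marker genes added after their values were seen) and the methods' t-test.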

Additional observations from a re-analysis of the deposited data

Results flagged for a closer look

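The change of Abca1 differed between the models by 1.67 on the log2 scale (standard error 0.21, limma adjusted p = 0.0185). Its signals were lower than in wild type on all 4 mutant arrays, by 0.53 on average in EC-N1ICD (log2 fold change -0.53) and by 2.20 in EC-Rbpj-KO (log2 fold change -2.20). The difference kept its side of the threshold in 10 of 15 limma alternatives.

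The change of Abcb1b differed between the models by 2.607 (standard error 0.42, limma adjusted p = 0.0366), with log2 fold changes of -0.85 and -3.45, and was past the threshold in 7 of 15 limma alternatives. Abcb1a, the neighbouring gene, gave no such difference with either probe set (0.18, adjusted p = 0.942, and -0.07, adjusted p = 0.983). In both Abca1 and Abcb1b the wild type signals of the sets differ by more than the mutant signals, as given above. No member was tested for samples far from the others, since each group holds 2 arrays.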

How the results depend on the processing

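Abca1 and Abcb1b in EC-Rbpj-KO stayed past the threshold in 16 of 16 limma alternatives (log2 fold changes of -2.28 to -1.48 and -3.80 to -1.57), and Abcg2 in 11 of 16 (-0.48 to -0.38). The count of members past the threshold in EC-N1ICD was 0 throughout, except for 1 (Abcb1a) with only the 4 arrays of the set and 3 (Abca1, Abca2, Abcb1a) with the unadjusted t-test. In EC-Rbpj-KO it was 2 to 4 with each array left out, 2 with median centring, without trend or with only the 4 arrays of the set, 4 with the mean of all probe sets or the unadjusted t-test, and 0 with the t-test after adjustment. For the difference between the models the count was 1 with quantile normalization, 0 with the mean of all probe sets or without trend, and 0 to 2 with each array left out.

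The dimmer probe set of Abcb1a in EC-N1ICD missed the threshold with 16 added to each signal (-1.50, adjusted p = 0.0612) and without trend (-1.95, adjusted p = 0.0569), and ranged from -2.05 to -1.85 with each array left out. In EC-Rbpj-KO it ranged from -2.30 to -1.47 so. No result changed direction past the threshold. Median centring and quantile normalization moved the median of all genes by -0.015 and -0.012 in EC-N1ICD and by 0.073 and 0.074 in EC-Rbpj-KO. The cause of these shifts was not tested. No paired analysis was possible because the mutant and wild type samples of a set share only 1 leading title number. That number is borne by mutant replicate 2 and both wild type samples, and its meaning is not given. In the fits without mutant replicate 1 the fold changes of its set rest on these arrays. The spread in those fits comes from all arrays left, those of the other set included. With an array left out, 12 of 18 partner and marker calls in EC-Rbpj-KO and 8 of 9 in EC-N1ICD were lost in at least 1 run, an alternative added after the data were seen. With 2 arrays a group the spread of a single gene is poorly known, and the 13 dim members carry no usable change.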
